A study of Bombus terrestris with 20 samples.

Results

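Ovaries of egg-producing (ovary-active) workers of the buff-tailed bumblebee, Bombus terrestris, were compared with the resting ovaries of ovary-inactive workers across all genes that the ovary table lists. The members were chosen by the sample labels alone and comprise 6 of the 20 samples of the series, 3 libraries of ovary-active and 3 of ovary-inactive ovaries, with 10087 of the 10383 genes found in any of the 3 tissue tables. The workers belonged to the subspecies audax and were taken as adults from colonies that still had their queen. Ovary-active workers had ovaries scoring 4 to 6 and ovary-inactive workers ovaries scoring 0 to 1 on a scale of ovary activation, and workers with intermediate scores were not used. Each library was made from the pooled ovaries of 7 workers. The study matched workers of both phenotypes by age but mostly not by colony, so colony and phenotype cannot be told apart. As replicates are pools, p-values below measure the spread between pools. Per the study's methods each pool mixed workers of several colonies, and pools of a phenotype shared colonies. This spread therefore does not measure that between colonies. Ovaries of ovary-active workers hold developing oocytes, and transcripts of oocytes, nurse cells and follicle cells were sequenced together, so more cells of a type and more RNA per cell cannot be told apart. The other samples are brain, fat body and worker-laid eggs, and are used only where they bear on ovary.

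As background, a bee ovary is a bundle of ovarioles in which germline stem cells give rise to an oocyte and its sister nurse cells. Nurse cells load the oocyte with RNA and protein, while the follicle cells around it take part in yolk uptake and later secrete the vitelline envelope and eggshell. Yolk protein comes mainly from the fat body as vitellogenin. In a resting worker ovary the ovarioles are thin and hold no growing oocytes. Juvenile hormone and ecdysteroids are the insect hormones most often tied to ovary activation, and in adult females of many insects the ovary itself makes ecdysteroids.

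Values are normalized counts, that is estimated reads per gene divided by size factors within ovary, and are not corrected for gene length. A library held between 23308138 and 28668067 summed reads for ovary-active workers and between 23118226 and 31164293 for ovary-inactive workers, and each read was worth 0.770 to 1.39 normalized counts. Replicate 3 of ovary-active workers had the lowest weight, 0.231 against 0.956 and 3.16 for the other ovary-active libraries, when limma weighted the libraries by their agreement with the fit. Replicate 2 of ovary-inactive workers correlated with the 3 ovary-active libraries at Pearson's r of 0.859 to 0.886 across genes, against 0.795 to 0.836 for the other ovary-inactive libraries. Counts are therefore also given without these 2 libraries where this moved them by over 1.5 times, and for the germ line, translation, fat body and gut lists. Against the tissue label, the 4 germ line markers listed (maelstrom, tudor, Ago3 and bicaudal C) were read in every library, with summed normalized counts of 62811, 86417 and 81576 in ovary-active ovaries and 39941, 50554 and 34650 in ovary-inactive ovaries.

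Most of the ovary transcriptome differed between the phenotypes. Of 9496 genes tested (mean normalized count of at least 10), 2592 (27.3%) were higher in ovary-active ovaries and 2531 (26.7%) were higher in ovary-inactive ovaries at an adjusted p under 0.05 (limma, Benjamini-Hochberg), and the remaining 4373 were not called. A gene called higher in ovary-active ovaries is termed an ovary-active worker DEG below, and the reverse an ovary-inactive one. In all, 53.9% of genes were called, and 60.6% had an unadjusted p under 0.05. Without replicate 3 of ovary-active and replicate 2 of ovary-inactive workers, the counts were 2673 and 2604. All 3 ovary-active libraries lay above all 3 ovary-inactive libraries in 3163 genes (33.3%) and below them in 3161 genes (33.3%). The direction of the counts rests on the scaling: when each library was scaled to the same total, the median over all genes of the log2 fold change moved to -0.32, against 0.02 as deposited, and 1572 genes were higher and 3794 lower in ovary-active ovaries. By comparison, 2.93% of genes were called in fat body and 0.0211% in brain by the same test.

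The changes were not symmetrical in size. Up to a log2 fold change of 2 the numbers were close, with 493 genes higher and 453 lower in ovary-active ovaries by at least that much. At 4 or more there were 148 ovary-active and 35 ovary-inactive worker DEGs, at 6 or more 53 and 3, and at 8 or more 24 and 0, numbers that for genes near 0 in one phenotype depend on the pseudocount. Calls also depended on abundance. Among 390 genes with a mean of at least 10000, 42.1% were ovary-active and 13.6% ovary-inactive worker DEGs, whereas among 2492 genes with means of 100 to 1000 the shares were 18.9% and 37.0%. As deposited, the most abundant genes thus leaned toward ovary-active ovaries, with a median log2 fold change of 0.39, and the genes of middling abundance toward ovary-inactive ovaries, with a median of -0.31. Both medians rest on the scaling: with each library scaled to the same total, the median over all genes moved from 0.02 to -0.32. The means also include the ovary-active values, so a gene raised in ovary-active ovaries moves to a higher abundance.

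**Figure D1:**
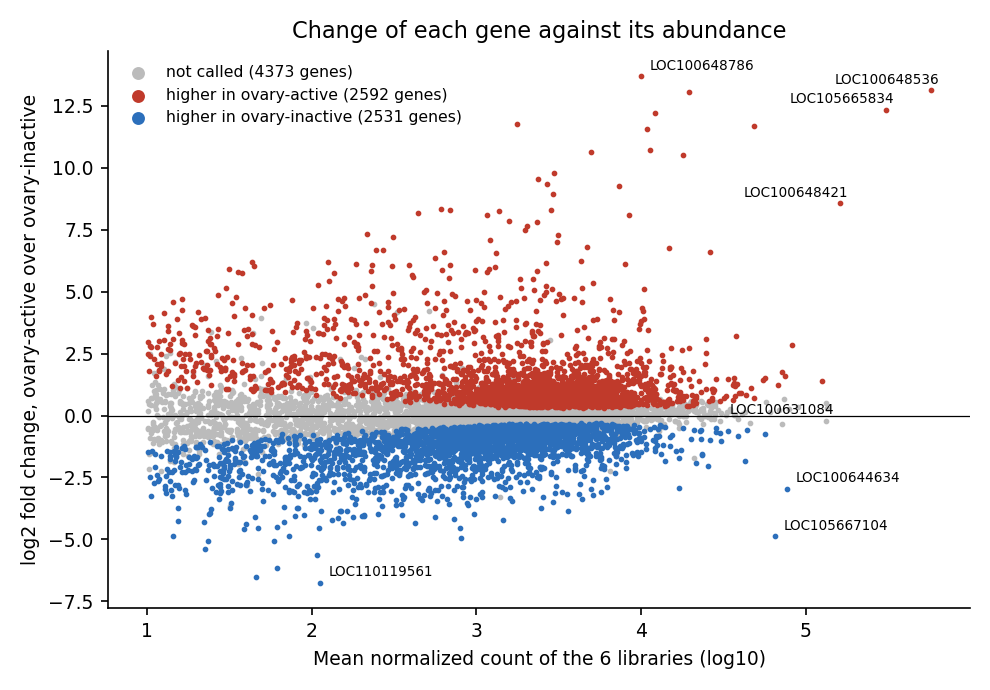
Log2 fold change of each of 9496 genes (ovary-active over ovary-inactive) against its mean normalized count over the 6 ovary libraries on a log10 axis, with 2592 ovary-active worker DEGs in red, 2531 ovary-inactive worker DEGs in blue, and genes not called in grey. The 3 red points at the right, LOC100648536, LOC105665834 and LOC100648421, combine the highest abundance with a log2 fold change of 8.58 or more.

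Expression in ovary-active ovaries was carried by fewer genes than in ovary-inactive ovaries. The leading gene of a library took 3.48%, 2.12% and 5.68% of the summed normalized counts in ovary-active ovaries, against 0.777%, 0.602% and 0.688% in ovary-inactive ovaries. The 10 leading genes of a library took 9.65%, 8.05% and 12.8% in ovary-active ovaries and 4.41%, 4.17% and 4.56% in ovary-inactive ovaries. The top 100 genes took 23.3% ± 2.73 in ovary-active and 16.1% ± 0.122 in ovary-inactive ovaries (SD, n = 3 each). The gap thus lay mainly in the first few ranks, and it narrowed in relative terms from 5.46-fold for the leading gene to 1.44-fold for the top 100. These are shares of counts and not of molecules, since long transcripts give more reads, and values per coding length were not computed.

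The ovary-inactive libraries were nearly identical in evenness. A library reached 50% of its counts with 784, 801 and 599 genes in ovary-active ovaries, against 1049, 1051 and 1030 genes in ovary-inactive ovaries. The effective number of genes, the exponential of the Shannon entropy and thus the number of equally expressed genes that would give the same diversity, was 3096, 3286 and 2418 in ovary-active and 4199, 4211 and 4172 in ovary-inactive ovaries. The SD between ovary-inactive libraries was 19.6 effective genes, against 456 between ovary-active libraries. The Gini index, which is 0 when all genes share the counts equally, was 0.702 ± 0.0207 in ovary-active and 0.645 ± 0.00116 in ovary-inactive ovaries (SD, n = 3 each). In all 9 measures of dominance and evenness computed, the phenotypes did not overlap in the libraries (exact permutation test, 2-sided, p = 0.1 each, the smallest that 3 against 3 libraries allow). Replicate 3 was the most uneven of the ovary-active libraries in each of these measures, and without it the 10 leading genes still took 4.47 percentage points more in ovary-active than in ovary-inactive ovaries.

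**Figure D2:**
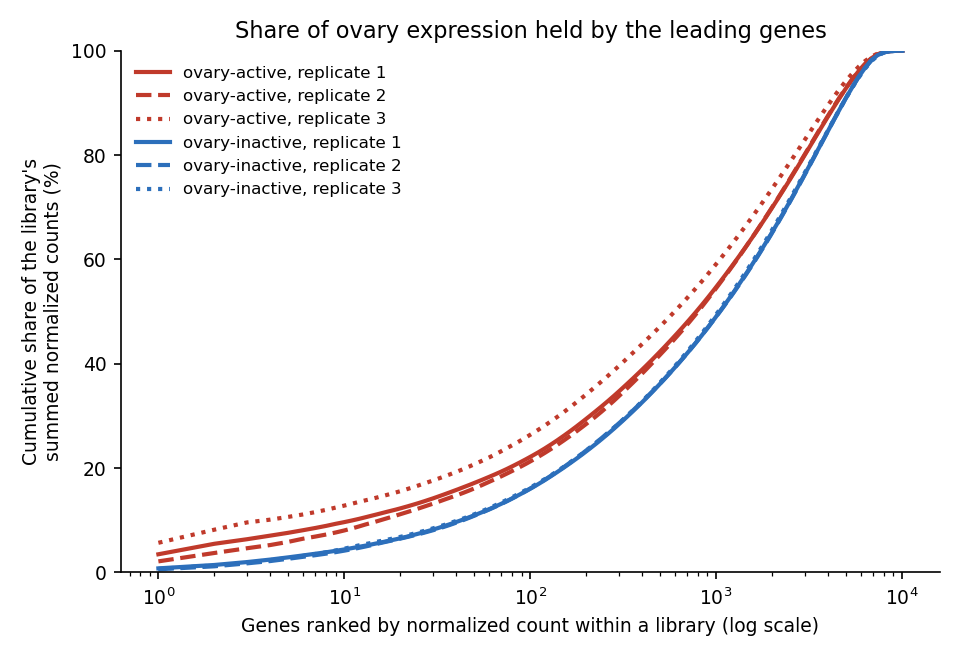
Cumulative share of the summed normalized counts of each ovary library (%) against gene rank within the library on a log axis, with 3 ovary-active libraries in red and 3 ovary-inactive libraries in blue. The red curves start at 2.12% to 5.68% and the blue ones at 0.602% to 0.777%, the blue curves lie on top of each other, and replicate 3 of ovary-active workers (red, dotted) runs above the rest.

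In ovary-active ovaries, much of the unevenness lay in a handful of genes. The genes left out below were picked by their ovary-active values, so a narrower gap is built in. Leaving out the leading genes of ovary-inactive ovaries was not tried. Without the 2 genes with the largest mean in ovary-active ovaries, the 10 leading genes took 5.38% in ovary-active and 4.38% in ovary-inactive ovaries, and 50% of the counts was reached with 848 and 1043 genes. Without the 10 genes with the largest mean in ovary-active ovaries, an alternative chosen after seeing the data, the order of the phenotypes turned round for this measure. The 10 leading genes then took 3.18% in ovary-active and 3.62% in ovary-inactive ovaries (exact permutation test, p = 0.2). The number of genes holding 50% of the counts kept its direction there, at 942 in ovary-active and 1093 in ovary-inactive ovaries (exact permutation test, p = 0.1), as did the effective number of genes, at 4018 and 4373.

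In the other tissues most of these measures overlapped between phenotypes. In fat body, 50% of the counts was held by 113 ± 13.1 genes for ovary-active and by 121 ± 11.9 genes for ovary-inactive workers (SD, n = 3 each, exact permutation test, p = 0.6). Of the 9 measures, 2 did not overlap in fat body and had the same direction as in ovary: the Gini index, at 0.840 ± 0.00239 for ovary-active and 0.836 ± 0.00296 for ovary-inactive workers, and the genes holding 90% of the counts, at 2653 ± 26.8 and 2728 ± 39.8 (SD, n = 3 each, exact permutation test, p = 0.1 each). In brain all 9 overlapped, and the numbers of genes holding 50% were 537 ± 252 and 643 ± 64.4 (SD, n = 3 each, exact permutation test, p = 0.8), with 1 ovary-active brain library at 246. Among the ovary, fat body and brain libraries, those of ovary-inactive ovaries were the most even by the number of genes holding 50% of the counts. Egg libraries are left out of this ranking, as their values are corrected for length and the tissue values are not. Whether the phenotype effect differs between tissues was not tested.

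**Figure D3:**
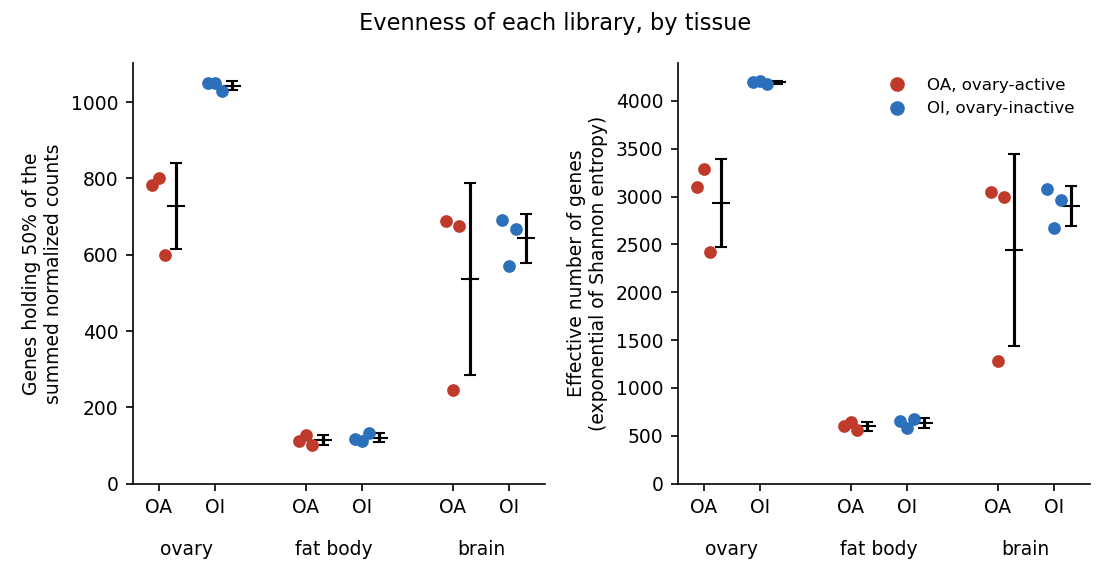
Number of genes holding 50% of the summed normalized counts (left) and effective number of genes (right) in each of the 18 tissue libraries, with ovary-active (OA) in red and ovary-inactive (OI) in blue. Points are libraries, with the mean and SD of 3 beside them, and the ovary-inactive ovaries form a tight group at 1030 to 1051 genes, above every other library.

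The summed normalized counts, which follow from the scaling and are no absolute amount, averaged 29897700 in ovary-active and 23670936 in ovary-inactive ovaries, 1.26-fold higher in ovary-active ovaries. Genes with a higher mean in ovary-active ovaries (5170 genes) gained 10399363 counts in sum, and genes with a lower mean (4917) lost 4172599. The gain was concentrated: 1 gene held 11.0% of it, 3 genes 20.0% and 161 genes 50%. The loss was spread more widely, with 6.94% in the top 3 genes and 334 genes needed for 50%. With each library scaled to the same total, an alternative chosen after seeing the data, gain and loss were equal by construction, 3 genes held 26.3% of the gain and 4.84% of the loss, and 50% was held by 73 and 519 genes. Ovary-active worker DEGs held 87.5% of the gain and ovary-inactive worker DEGs 84.0% of the loss. Genes under 1 ppm in both egg libraries held 9.56% of the gain and 2.85% of the loss. The eggs' values are estimated counts corrected for length and given in ppm of their library. Most of that share of the gain was 1 gene, LOC105665834, which alone held 5.91% of the gain. The share of all genes under this limit is not given, so the percentages do not describe such genes as a class.

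The 3 genes that led ovary-active ovaries carry no name in the sources used here, and ranked far down in ovary-inactive ovaries. LOC100648536 had 998883, 608408 and 1834945 normalized counts in ovary-active ovaries, against 119, 119 and 109 in ovary-inactive ovaries (log2 fold change 13.12 ± 0.35 SE, limma adjusted p = 1.31e-06). It ranked 1st in ovary-active and 8147th in ovary-inactive ovaries, and took 5.68% of the counts of replicate 3. LOC105665834, an uncharacterized protein, had 576390, 461111 and 811716 in ovary-active ovaries, against 23.6, 4479 and 13.1 in ovary-inactive ovaries (log2 fold change 12.34 ± 1.90 SE, adjusted p = 0.00156). Replicate 2 of ovary-inactive workers thus held over 100 times the counts of the other ovary-inactive libraries, though still far below every ovary-active library. LOC100648421 had 250981, 261621 and 450181 in ovary-active ovaries, against 822, 706 and 903 in ovary-inactive ovaries (log2 fold change 8.58 ± 0.24 SE, adjusted p = 1.39e-06). In the egg libraries, LOC100648536 was at 11.3 and 12.3 ppm, LOC100648421 at 3.42 and 2.23 and LOC105665834 at 0.312 and 0.0534.

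The other leading genes of ovary-active ovaries were abundant in both phenotypes. LOC100652140 took 0.482% of the counts in ovary-active and 0.0843% in ovary-inactive ovaries, a log2 fold change of 2.83 ± 0.22 SE (limma, adjusted p = 0.000133). LOC100646910, LOC105666558 and icarapin-like (LOC100642807, named after a bee venom protein) rose by smaller amounts, with log2 fold changes of 1.38, 1.60 and 1.74. LOC100645451, LOC100647589 and elongation factor 1-alpha (LOC100631084), which brings aminoacyl-tRNA to the ribosome, completed the top 10 and did not pass the test, though LOC100645451 did without ovary-inactive replicate 2 (log2 fold change 0.65, adjusted p = 0.0463). In sum, the 10 genes with the largest mean in ovary-active ovaries took 10.2% of the counts there and 2.27% in ovary-inactive ovaries, and 7 of them were ovary-active worker DEGs.

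Of the 10 leading genes of ovary-inactive ovaries, 4 also led ovary-active ovaries. Elongation factor 1-alpha (LOC100631084) led, with 115258, 119980 and 136318 normalized counts in ovary-active and 132346, 135639 and 160850 in ovary-inactive ovaries, and the phenotypes overlapped (adjusted p = 0.471). The second, cytoplasmic polyadenylation element-binding protein 1 (CPEB1, LOC100644634), belongs to a family that stores and activates maternal mRNAs in oocytes, with orb as its member in the Drosophila germ line. CPEB1 had 17563, 20763 and 14845 counts in ovary-active ovaries, against 153841, 105952 and 151837 in ovary-inactive ovaries (log2 fold change -2.95 ± 0.22 SE, limma adjusted p = 0.000118). The third, the unnamed LOC105667104, had 4220, 4378 and 3285 in ovary-active ovaries, against 183715, 61852 and 134231 in ovary-inactive ovaries (log2 fold change -4.87 ± 0.37 SE, adjusted p = 0.000118). CPEB1 and LOC105667104 were thus 2 of the 3 leading genes in resting ovaries, and ranked 212th and 1724th in ovary-active ovaries. LOC100647296, the ninth, also fell (log2 fold change -0.75 ± 0.18 SE, adjusted p = 0.00982). Of the 10 leading genes in ovary-inactive ovaries, 6 were not called, 3 fell and 1 rose (LOC100646910), and together they took 3.08% of the counts in ovary-active and 4.27% in ovary-inactive ovaries. Between the phenotypes, 4 of the top 10, 25 of the top 50, 64 of the top 100 and 666 of the top 1000 genes were shared.

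A small group of genes had high counts in ovary-active ovaries and next to none in ovary-inactive ovaries. Under 10 normalized counts in every ovary-inactive library and at least 1000 in every ovary-active library were seen in 6 genes, and the reverse in 0. With a lower limit of 100 for the high phenotype, the numbers were 12 and 1. As their values in ovary-inactive ovaries rest on a few reads, folds for these genes depend on the pseudocount and are not given. LOC100648898, annotated as major royal jelly protein 1 and an ortholog of yellow-g, which in Drosophila is expressed by follicle cells and needed for the eggshell, had 23482, 9641 and 39691 counts in ovary-active ovaries, against 0.883, 5.46 and 6.14 in ovary-inactive ovaries (limma, adjusted p = 3.07e-05). LOC100649020 had 31516, 18913 and 66513 in ovary-active ovaries, against 5.24, 2.31 and 2.02 in ovary-inactive ovaries (adjusted p = 7.74e-06). In both genes replicate 3 was the highest and replicate 2 the lowest ovary-active library, as for LOC100648536. LOC100648786 had 21599, 12633 and 25771 in ovary-active ovaries, against 0, 0 and 2.02 in ovary-inactive ovaries, and LOC100646065 had 4270, 2867 and 3379 in ovary-active ovaries and was listed at 0 in all ovary-inactive libraries. LOC100646845 was the most even of the group, with 9286, 10484 and 9962 in ovary-active ovaries, against 5.24, 6.93 and 4.04 in ovary-inactive ovaries. LOC100651405, singled out after its values were seen, completed the 6 with 1176, 1138 and 1800 in ovary-active ovaries, against 2.73, 4.02 and 3.16 in ovary-inactive ovaries. All 6 were under 1 ppm in both egg libraries. The count of 6 rose to 14 when replicate 2 of ovary-inactive workers was left out.

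Some further genes stood just outside these limits. LOC105665921 had 88441, 79853 and 122141 counts in ovary-active ovaries, against 11.3, 53.2 and 36.4 in ovary-inactive ovaries (log2 fold change 11.67 ± 0.49 SE, limma adjusted p = 1.26e-05), and was listed at 0 in both egg libraries. LOC100646104 had 20004, 11304 and 33605 in ovary-active ovaries, against 3.49, 13.9 and 3.03 in ovary-inactive ovaries. LOC100652273 had 30821, 15529 and 21929 in ovary-active ovaries, against 5.24, 31.6 and 10.1 in ovary-inactive ovaries.

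Several of these genes neighbour each other in the gene order of the RefSeq assembly iyBomTerr1.2, in which 9462 of the 10087 identifiers were found. LOC100649020 lies directly next to LOC100648898, and royal jelly protein like (LOC100651683) lies 2 places on and also rose, with 497, 611 and 175 counts in ovary-active ovaries, against 102, 97.8 and 155 in ovary-inactive ovaries (log2 fold change 1.69 ± 0.47 SE, limma adjusted p = 0.0177). LOC100651683 kept its call in only 2 of 6 fits that left out a library, with an adjusted p of up to 0.058 in the others (without replicate 1 or 2 of either phenotype). Directly next to LOC100648536 was LOC100644582, and LOC100648658 lay 2 places away on the same side, with log2 fold changes of 6.74 and 9.24. Next to LOC100646845 was LOC100647081, at 8.30. Among called genes, the 100 largest increases in ovary-active ovaries were taken, of which 89 were found in the assembly and 23 of these had another of the 100 directly beside them. Of the 100 largest decreases, 82 were found and 4 had a direct neighbour among them. The genes were chosen by their change, and how often other sets of 100 genes lie side by side was not computed. Sequence similarity between neighbours, which could lead to shared reads, was not examined.

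Of the 10 called genes that fell furthest without overlap, 8 averaged under 1000 counts in ovary-inactive ovaries, and LOC105667104, described above, and LOC100647621 were the exceptions. LOC110119561, a long noncoding RNA, had 1.67, 1.11 and 0 counts in ovary-active ovaries, against 352, 79.4 and 240 in ovary-inactive ovaries (limma, adjusted p = 0.00027). LOC105666062, 2 places from it in the gene order, had 0, 3.18 and 0 in ovary-active ovaries, against 176, 63.9 and 124 in ovary-inactive ovaries. LOC105666807, LOC110120177 and LOC110119549 were listed at 0 in all ovary-active libraries, and LOC105666807 averaged 92.0 ± 11.9 counts in ovary-inactive ovaries (SD, n = 3). LOC105666807 was nonetheless at 25.0 and 69.2 ppm in the egg libraries. LOC100646073, singled out after its values were seen, was the 1 gene under 10 in every ovary-active library (8.01, 4.24 and 1.39) and at least 100 in every ovary-inactive library (112, 139 and 174). Among more abundant genes, LOC100647621 had 89.3, 53.1 and 24.7 in ovary-active ovaries, against 1458, 1296 and 1903 in ovary-inactive ovaries (log2 fold change -4.93 ± 0.44 SE, adjusted p = 0.000191). Angiotensin-converting enzyme (LOC100643830), a peptidase, had 282, 392 and 345 in ovary-active ovaries, against 4272, 3717 and 5817 in ovary-inactive ovaries (log2 fold change -3.74 ± 0.21 SE, adjusted p = 3.97e-05). The 5 ovary-inactive worker DEGs with the smallest adjusted p, of which it is 1, had log2 fold changes between -3.74 and -2.48.

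**Figure D4:**
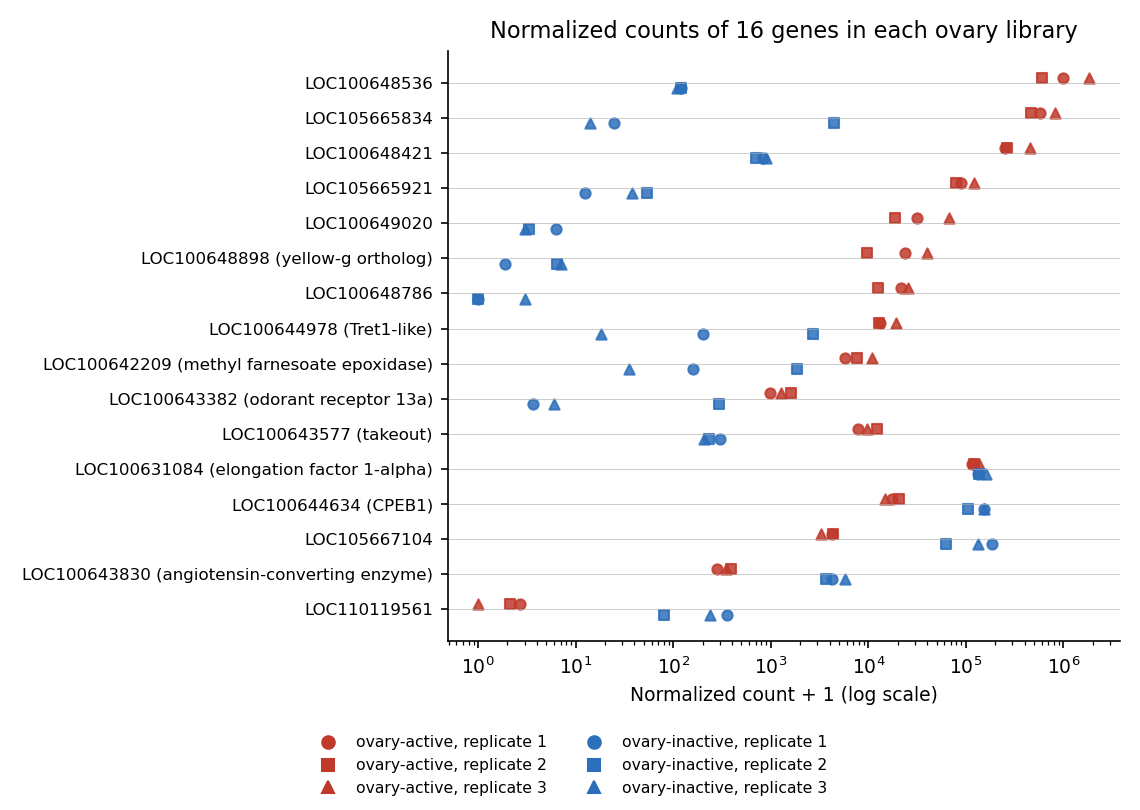
Normalized count plus 1 of 16 genes in each ovary library on a log axis, with ovary-active libraries in red and ovary-inactive libraries in blue, and the symbol giving the replicate. In 15 of the 16 genes the colours do not overlap, elongation factor 1-alpha is the exception, and the blue square (ovary-inactive replicate 2) lies nearest to the red symbols in genes such as LOC105665834 and odorant receptor 13a.

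Gene groups below were formed by gene name. Names were found for 2165 of the 9496 genes tested, of which 598 rose and 557 fell in ovary-active ovaries, with a median log2 fold change of 0.04, close to the values for all genes. Each group is therefore a part of its pathway.

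Germ line genes did not move as a group. Of 6 genes of germ line development and oogenesis, 3 rose, 2 fell and 1 did not pass the test (median log2 fold change 0.43), against 27.3% and 26.7% of all genes that rose and fell. Without ovary-active replicate 3 and ovary-inactive replicate 2, 4 rose and 1 fell. Protein ovo (LOC100643010), a transcription factor of the Drosophila female germ line, had 3643, 5189 and 4411 counts in ovary-active ovaries, against 292, 879 and 163 in ovary-inactive ovaries (log2 fold change 3.65 ± 0.53 SE, limma adjusted p = 0.00125). Maelstrom 2 (LOC100644702), whose Drosophila counterpart acts in the piRNA pathway that silences transposons, had 18635, 21574 and 27193 in ovary-active ovaries, against 3200, 6415 and 3236 in ovary-inactive ovaries (log2 fold change 2.45 ± 0.28 SE, adjusted p = 0.000528). In both, the highest ovary-inactive library was replicate 2. Ago3 (LOC100644656), an Argonaute of the same pathway, went the other way, with 2594, 2280 and 2071 in ovary-active ovaries, against 4494, 5162 and 6059 in ovary-inactive ovaries (log2 fold change -1.17 ± 0.15 SE, adjusted p = 0.000794). Bicaudal C (LOC100642983), an RNA-binding protein of oogenesis, rose with a log2 fold change of 0.79 ± 0.24 SE (adjusted p = 0.0246), but its adjusted p was 0.0512 to 0.095 when replicate 2 or 3 of ovary-active or replicate 1 or 3 of ovary-inactive workers was left out. Germ cell-less (LOC100644304), which in Drosophila is needed for primordial germ cells, fell by 0.42 on the log2 scale (adjusted p = 0.0299), with an adjusted p of 0.087 to 0.0988 without ovary-active replicate 2 or ovary-inactive replicate 2 or 3. Tudor (LOC100644474), a germ plasm protein, had 5445, 6776 and 3685 in ovary-active and 3887, 6410 and 4619 in ovary-inactive ovaries and did not pass the test (adjusted p = 0.809), but did without ovary-active replicate 3 and ovary-inactive replicate 2 (log2 fold change 0.52, adjusted p = 0.0299). The 1 gene listed for meiosis did not pass the test either. No gene name matched the list for eggshell and the yellow family, to which LOC100648898 belongs only by its ortholog.

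Hormone genes split evenly. Of 6 genes of juvenile hormone and ecdysone biology, 3 rose by large amounts and 3 fell, against 27.3% and 26.7% of all genes. Methyl farnesoate epoxidase (LOC100642209), which makes juvenile hormone from methyl farnesoate, had 5705, 7566 and 10920 counts in ovary-active ovaries, against 158, 1866 and 34.4 in ovary-inactive ovaries (log2 fold change 5.15 ± 1.2 SE, limma adjusted p = 0.00909). HR3 (LOC100643231), an ecdysone-induced nuclear receptor, had 537, 436 and 369 in ovary-active ovaries, against 3.18, 31.1 and 11.0 in ovary-inactive ovaries (log2 fold change 5.24 ± 0.67 SE, adjusted p = 0.000755). The ecdysteroid-regulated 16 kDa protein (LOC100643802) had 17904, 15670 and 24640 in ovary-active ovaries, against 778, 1090 and 975 in ovary-inactive ovaries (log2 fold change 4.34 ± 0.20 SE, adjusted p = 1.82e-05). The 3 that fell are transcription factors of the hormone response. Broad-complex (LOC100643256), an early ecdysone-response factor, had 393, 417 and 326 in ovary-active ovaries, against 1582, 1769 and 1698 in ovary-inactive ovaries (log2 fold change -2.16 ± 0.16 SE, adjusted p = 0.000118). The ecdysone-induced receptor E75 (LOC100644185) and Kr-h1, a factor induced by juvenile hormone, fell, with log2 fold changes of -1.03 and -0.76 (adjusted p = 0.0189 and 0.0329). Both calls were lost without ovary-inactive replicate 1 or 3, where the adjusted p was 0.0681 and 0.0678 for E75 and 0.0918 and 0.11 for Kr-h1.

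The 3 cytochrome P450 genes of ecdysteroid metabolism named here rose. In a list of 6 P450 genes added after the values were seen, 4 rose, 1 fell and 1 did not pass the test, against 27.3% and 26.7% of all genes. P450 315a1 (LOC100644009, shadow in Drosophila), a late enzyme of ecdysteroid synthesis, had 19040, 22525 and 20166 counts in ovary-active ovaries, against 6181, 9925 and 2617 in ovary-inactive ovaries (log2 fold change 1.92 ± 0.42 SE, limma adjusted p = 0.00663). P450 307a1 (LOC100642619, spook in Drosophila), an early enzyme of that pathway, had 3388, 2362 and 1519 in ovary-active ovaries, against 460, 411 and 715 in ovary-inactive ovaries (log2 fold change 2.16 ± 0.32 SE, adjusted p = 0.00135). P450 18a1 (LOC100642897), which inactivates ecdysteroids, had 2958, 1789 and 4229 in ovary-active ovaries, against 110, 130 and 152 in ovary-inactive ovaries (log2 fold change 4.43 ± 0.31 SE, adjusted p = 9.36e-05). Genes for making and for inactivating ecdysteroids were thus higher in the same libraries. P450 4c3 (LOC100644743) was the member that fell, by 1.86 on the log2 scale (adjusted p = 0.000331). The P450 315a1 and 18a1 genes were also found in eggs, at 1755 and 1830, and 168 and 136 ppm, whereas P450 307a1 was at 0.908 and 0.106 ppm.

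Yolk and fat body genes were few. A vitellogenin-like precursor (LOC100643258), of the family of the main yolk protein, had 1155, 1854 and 1763 counts in ovary-active ovaries, against 115, 371 and 83.9 in ovary-inactive ovaries (log2 fold change 3.34 ± 0.51 SE, limma adjusted p = 0.00155). The very low-density lipoprotein receptor (LOC100643157), of the family to which insect yolk receptors belong, fell by 1.37 on the log2 scale (adjusted p = 0.0378), with an adjusted p of 0.0689 to 0.0968 without any 1 of the ovary-inactive libraries. Protein takeout (LOC100643577), of a family of carriers of small lipophilic molecules, was the largest change in the fat body list, with 7894, 12212 and 9725 in ovary-active ovaries, against 298, 230 and 208 in ovary-inactive ovaries (log2 fold change 5.33 ± 0.21 SE, adjusted p = 8.16e-06). The 2 lipid storage droplet genes of that list did not pass the test. Of its 4 members, 2 rose and 0 fell (3 and 0 without ovary-active replicate 3 and ovary-inactive replicate 2), against 27.3% and 26.7% of all genes. The leucine-rich repeat gene LOC100642443, known as IRP30, had 920, 3338 and 1785 in ovary-active ovaries, against 29.7, 42.4 and 316 in ovary-inactive ovaries (log2 fold change 4.56 ± 0.86 SE, adjusted p = 0.00358).

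Genes for chromatin and for making and degrading protein rose to different extents. All 6 histone genes rose (median log2 fold change 1.45), against 27.3% of all genes. They ranged from H3.3 (LOC100631090) at 0.73 ± 0.14 SE to a histone H2B-like gene (LOC100644116) at 3.47 ± 0.66 SE (limma, adjusted p = 0.00407 and 0.00375). Of the 6, 4 rose without ovary-active replicate 3 or ovary-inactive replicate 3, and 4 under scaling to the total. The H2B-like gene had 4734, 6525 and 10734 counts in ovary-active ovaries, against 708, 1614 and 212 in ovary-inactive ovaries. Histone H4 (LOC100643875) was the least certain, at an adjusted p of 0.0448, and was called in 2 of 6 fits that left out a library (adjusted p up to 0.13, without ovary-inactive replicate 3, and 0.0587, 0.121 and 0.0749 when replicate 2 or 3 of ovary-active or replicate 2 of ovary-inactive workers was left out). Proteasome genes changed with little spread: 15 of 16 rose, against 27.3% of all genes, 0 fell, and the median was 0.94. Proteasome subunit alpha type-2 (LOC100644545) had 6929, 6611 and 7733 in ovary-active ovaries, against 2271, 3057 and 2137 in ovary-inactive ovaries (log2 fold change 1.53 ± 0.16 SE, adjusted p = 0.000385). The count of 15 held in each fit that left out 1 library and under scaling to the total.

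The share of cytosolic ribosomal protein genes that rose was near that of all genes (27.3%). Of 21, 5 rose, 0 fell and 16 did not pass the test (median log2 fold change 0.37), and the 5 became 2 without ovary-inactive replicate 1 or 3, and 3 under scaling to the total. Ribosomal protein S6 (LOC100643777) rose most, with 60717, 65983 and 118426 counts in ovary-active ovaries, against 25409, 33797 and 27173 in ovary-inactive ovaries (log2 fold change 1.45 ± 0.28 SE, limma adjusted p = 0.00393). In each of the 5, replicate 3 was the highest ovary-active library. Of 11 mitochondrial ribosomal protein genes, in a list added after the values were seen, 3 rose and 0 fell (1 rose without ovary-inactive replicate 3, and 1 under scaling to the total). Of 17 genes of oxidative phosphorylation, 10 rose, 1 fell and 6 did not pass the test (against 27.3% and 26.7% of all genes, median 0.64, 6 rose without ovary-inactive replicate 3, and under scaling to the total 4 rose and 2 fell). Of 14 translation factors, 5 rose and 2 fell (median 0.19), 7 and 2 did so without ovary-active replicate 3 and ovary-inactive replicate 2, and 5 and 5 under scaling to the total. Initiation factor 5 (LOC100643369), which prompts GTP hydrolysis at the start codon, rose most clearly, with a log2 fold change of 1.06 ± 0.18 SE (adjusted p = 0.00243). The 4E-binding protein Mextli (LOC100643495), which in Drosophila acts in germ line stem cells and early oogenesis, fell by 2.16 on the log2 scale (adjusted p = 0.00393). A further, less abundant elongation factor 1-alpha gene (LOC100631080) also fell, with a log2 fold change of -1.66 (adjusted p = 0.000517), unlike LOC100631084, which did not pass the test. Of 6 genes of protein export, also added after the values were seen, 5 rose and 0 fell (3 and 0 under scaling to the total), with Sec61 subunit gamma at a log2 fold change of 1.70.

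Counts of cell division genes depended on the libraries and the fit, and are to be read against 27.3% of all genes that rose and 26.7% that fell. Of 14 DNA replication genes, 3 rose, 2 fell and 9 did not pass the test (median log2 fold change 0.36). Without ovary-inactive replicate 2, 6 rose, without it and ovary-active replicate 3, 8 rose, with library weights 9 rose, and with all 18 libraries in 1 fit 7 rose. Of 15 genes of mitosis and the cell cycle, 3 rose, 2 fell and 10 did not pass the test (median 0.11), and 1 rose without ovary-inactive replicate 1 or 3. Under scaling to the total the balance turned in both lists, to 2 risen against 3 fallen and 1 against 5. The changes were divided within the machinery for DNA polymerase epsilon, the leading-strand polymerase: subunit 3 (LOC100642846) had a log2 fold change of 1.39 ± 0.23 SE and the catalytic subunit (LOC100644263) one of -1.29 ± 0.21 SE (limma, adjusted p = 0.00217 and 0.00179). Subunit 3 and DNA primase large subunit (LOC100644033), which rose by 1.19, were at 108 to 141 ppm in the egg libraries, and the catalytic subunit at 4.07 and 4.27.

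Some of the sugar transporters and of the genes of fatty acid elongation rose, against 27.3% of all genes that rose. None fell in the limma fit to the 6 ovary libraries as deposited and without library weights, but sugar transporters did in other fits. Both lists were added after the values were seen. Of 12 sugar and polyol transporters, 8 rose, 0 fell and 4 did not pass the test (median log2 fold change 1.47), and under scaling to the total 6 rose and 2 fell. In each fit without replicate 1, 2 or 3 of ovary-active or replicate 2 of ovary-inactive workers, 1 transporter fell. With library weights and with DESeq2 1 also fell, and with all 18 libraries in 1 fit 2 fell. A trehalose transporter (Tret1-like, LOC100644978), of the family that carries the main blood sugar of insects, had 13061, 12718 and 19261 counts in ovary-active ovaries, against 199, 2714 and 17.2 in ovary-inactive ovaries (log2 fold change 6.10 ± 1.5 SE, limma adjusted p = 0.0108). The related Tret1 gene LOC100643557 had 16504, 11720 and 15371 in ovary-active ovaries, against 4527, 3448 and 3967 in ovary-inactive ovaries (log2 fold change 1.86 ± 0.17 SE, adjusted p = 0.000224). The ERD6-like transporter LOC100644377 had 3267, 4015 and 3170 in ovary-active ovaries, against 30.9, 498 and 27.0 in ovary-inactive ovaries (log2 fold change 5.50 ± 0.99 SE, adjusted p = 0.00286). LOC100644978 and LOC100644377 were at 1485 and 1612, and 355 and 445 ppm in the egg libraries, and LOC100643557 at 67.5 and 48.3. Of 10 genes of fatty acid elongation and reduction, 7 rose and 0 fell (median 0.98), and 5 and 0 did so under scaling to the total. Among the 7 was very-long-chain 3-oxoacyl-CoA reductase (LOC100642272), an enzyme of the elongation cycle. It had 3723, 3227 and 3953 in ovary-active ovaries, against 632, 721 and 992 in ovary-inactive ovaries (log2 fold change 2.24 ± 0.19 SE, adjusted p = 0.000171). Of 5 odorant and gustatory receptor genes, 3 rose and 0 fell (2 and 0 under scaling to the total). An odorant receptor 13a (LOC100643382) had 970, 1595 and 1257 in ovary-active ovaries, against 2.62, 294 and 5.05 in ovary-inactive ovaries (log2 fold change 6.07 ± 1.46 SE, adjusted p = 0.00977).

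Several signalling and zinc finger genes fell, and none of either list rose in the fit to the 6 ovary libraries (2 zinc finger genes rose with library weights and 1 with all 18 libraries in 1 fit). Of 8 genes of insulin, TOR and growth factor signalling, 5 fell, 0 rose and 3 did not pass the test (median log2 fold change -1.07), against 26.7% of all genes that fell, with the same counts in every fit that left out 1 library. Insulin receptor substrate 1 (LOC100644779), the adaptor below the insulin receptor, had 1017, 1064 and 423 counts in ovary-active ovaries, against 3425, 3038 and 3698 in ovary-inactive ovaries (log2 fold change -2.13 ± 0.34 SE, limma adjusted p = 0.00169). TGF-beta receptor type-1 (LOC100643263) had 273, 222 and 143 in ovary-active ovaries, against 615, 648 and 740 in ovary-inactive ovaries (log2 fold change -1.69 ± 0.27 SE, adjusted p = 0.00169). In both, ovary-active replicate 3 was the lowest library. RAC kinase (LOC100643457), the Akt of insulin signalling, and the fibroblast growth factor receptor LOC100643345 fell, with log2 fold changes of -0.73 and -1.78. Of 3 genes of Notch, Wnt and Hedgehog signalling, frizzled-7-B (LOC100644081), a Wnt receptor, fell by 1.89 and the others did not pass the test. Of 36 zinc finger protein genes, a list added after the values were seen, 18 fell, 0 rose and 18 did not pass the test (median -0.47), against 26.7% of all genes that fell, and 12 fell without ovary-inactive replicate 1. Zinc finger protein 91-like (LOC100643524) changed most, with 14.0, 7.42 and 11.1 in ovary-active ovaries, against 139, 158 and 156 in ovary-inactive ovaries (log2 fold change -3.72 ± 0.34 SE, adjusted p = 0.000224). Feminizer (fem), a sex-determination gene of bees, had 454, 366 and 176 in ovary-active ovaries, against 1375, 1186 and 1557 in ovary-inactive ovaries (log2 fold change -2.14 ± 0.34 SE, adjusted p = 0.00174).

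**Figure D5:**
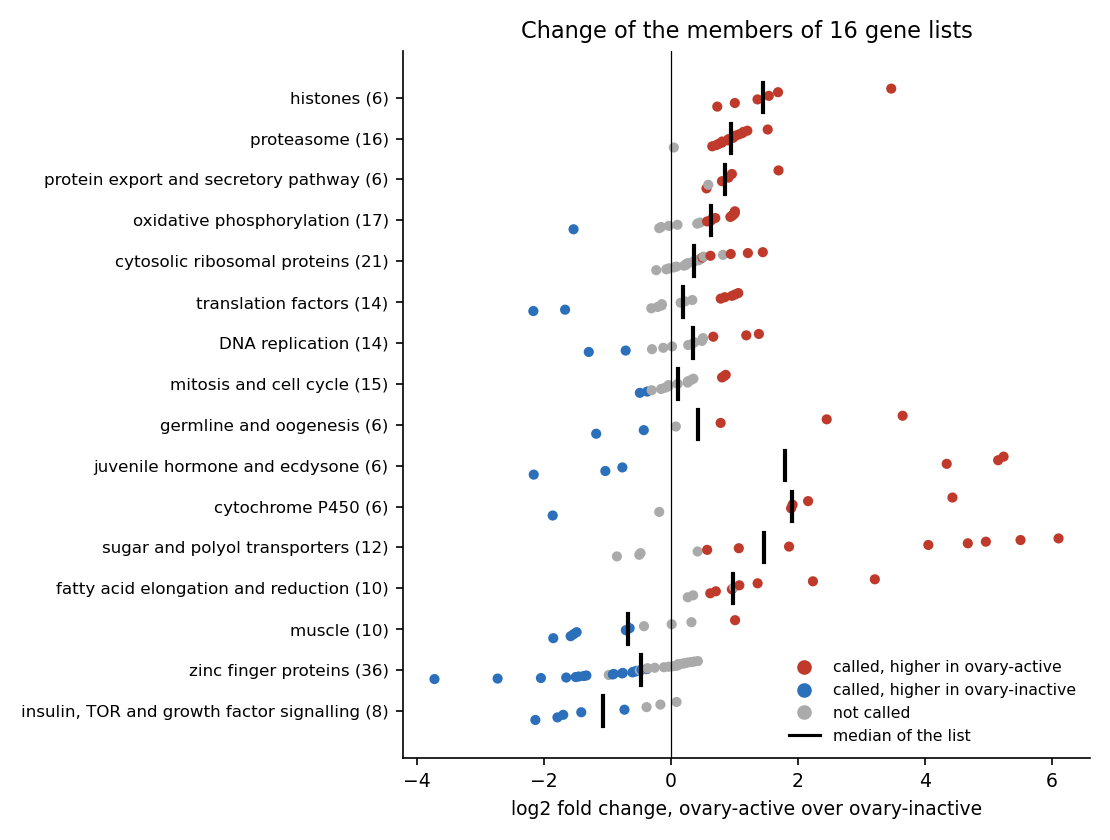
Log2 fold change (ovary-active over ovary-inactive) of each member of 16 gene lists, with the number tested in brackets, ovary-active worker DEGs in red, ovary-inactive worker DEGs in blue, genes not called in grey, and a bar at the list's median. The 6 histone genes and 15 of 16 proteasome genes are red, 18 of 36 zinc finger genes are blue with 0 red, and the hormone list splits into 3 red genes above 4 and 3 blue ones.

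Among lists for the tissues around the germ line, those for muscle, blood cells and basement membrane had more genes that fell than rose. The neuronal list was mixed. Shares over all genes were 27.3% that rose and 26.7% that fell. Of 10 muscle genes, 6 fell, 1 rose and 3 did not pass the test (median log2 fold change -0.68), against 26.7% of all genes that fell (6 and 0 without ovary-active replicate 3 and ovary-inactive replicate 2), and the summed counts of the 8 fixed muscle markers were 40980, 33622 and 36312 in ovary-active ovaries, against 48436, 49761 and 70046 in ovary-inactive ovaries. Troponin I (LOC100642480), of the thin filament, had 2080, 2048 and 2021 in ovary-active ovaries, against 6638, 6453 and 9399 in ovary-inactive ovaries (log2 fold change -1.85 ± 0.16 SE, limma adjusted p = 0.000189). Both fixed neuronal markers, syntaxin-1A and SNAP-25, fell: syntaxin-1A (LOC100643945), of synaptic vesicle fusion, had 5373, 5374 and 5237 in ovary-active ovaries, against 15268, 12379 and 16671 in ovary-inactive ovaries (log2 fold change -1.46 ± 0.14 SE, adjusted p = 0.000268). Of the wider list of 13 neuronal genes, however, 5 rose and 4 fell, with short neuropeptide F (LOC100643034) at a log2 fold change of 4.35 and the sodium channel para (LOC100642930) at 1.72, a balance that turned in several other fits, such as 3 and 5 without ovary-active replicate 3 and 2 and 3 without ovary-inactive replicate 1. Hemocytin (LOC100642980), the 1 marker of blood cells listed, summed to 49.0, 67.9 and 30.5 in ovary-active ovaries, against 192, 145 and 286 in ovary-inactive ovaries, and of 7 genes of blood cells and immunity 3 fell and 0 rose. The basement membrane proteins laminin beta-1 (LOC100642555) and papilin (LOC100642945) fell, with log2 fold changes of -0.74 and -3.97, and the third of that list did not pass the test. The summed muscle and hemocyte markers and the 2 fixed neuronal markers were thus lower in ovary-active ovaries, and their part in the other results was not tested.

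The remaining lists were mixed, and their counts are to be read against 27.3% of all genes that rose and 26.7% that fell. Trypsin-3 (LOC100642942), the 1 gut marker listed, had 76.0, 57.3 and 83.2 counts in ovary-active ovaries, against 216, 171 and 216 in ovary-inactive ovaries, and of 11 gut and Malpighian tubule genes 4 rose and 3 fell (6 and 4 without ovary-active replicate 3 and ovary-inactive replicate 2). Of 4 cuticle genes, 2 rose and 0 fell (1 of the 3 tested rose without ovary-active replicate 3 and ovary-inactive replicate 2). Of 7 genes named for venom, 2 rose and 1 fell, but melittin (LOC100631070), the main peptide of bee venom, tracked neither phenotype, with 156, 74700 and 360 in ovary-active and 367, 40451 and 9807 in ovary-inactive ovaries (limma, adjusted p = 0.578). Replicate 2 had the highest melittin in both phenotypes, and the 5 venom gland markers summed to 9182, 82109 and 8252 in ovary-active and 4438, 45154 and 14108 in ovary-inactive ovaries.

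Replicate 2 of ovary-inactive workers lay toward the ovary-active libraries in genes called in either direction. Of genes called in the fit without it, 83.8% of those higher in ovary-active and 85.9% of those higher in ovary-inactive ovaries were shifted that way. The median shift was 0.266 and 0.178 of the distance between the phenotypes. Among genes at least 8 times higher in ovary-active ovaries in the fit without replicate 2, the shift was larger in those found in eggs. Of these genes, 130 were at 10 ppm or more in both egg libraries. In these 130, replicate 2 exceeded the mean of the other ovary-inactive libraries by a median of 1.92 on the log2 scale and was the highest ovary-inactive library in 116, and in 53 (40.8%) it was at least 4 times above both. In the 66 such genes under 1 ppm in both egg libraries, the median was 0.21, and 2 (3.03%) were 4 times above both. For replicate 3 of ovary-inactive workers, taken in the same way, 5 of 67 genes under 1 ppm (7.46%) were 4 times above both others. LOC105665834, at 0.312 and 0.0534 ppm in eggs, is 1 of the 2 exceptions. The counts of called genes without this library were 2397 and 2279.

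The change in ovary was set against that in fat body where germ line and hormone genes could be tested in both. HR3 rose in ovary by 5.34 more on the log2 scale than in fat body (limma interaction, adjusted p = 0.000495), the ecdysteroid-regulated 16 kDa protein by 4.30 more (adjusted p = 2.5e-06) and ovo by 3.67 more (adjusted p = 0.00134). Takeout also differed, by 4.36 (adjusted p = 3.52e-05), with a log2 fold change in fat body of 0.96 that did not pass the test. LOC100648536 rose in ovary by 9.64 more than in fat body, where it had a log2 fold change of 3.48 (adjusted p = 0.0463), and in brain it had one of 4.12 (adjusted p = 0.0158). Over all genes, this interaction passed the test in 38.7% of 8705 genes for fat body and in 43.9% of 9097 genes for brain. The tables were normalized separately, so changes within a tissue are compared and not levels. The study describes ovary and fat body pools of the same worker numbers, colony numbers and ages, so both tissues may come from the same workers. The interaction fit took all libraries as independent, so its p-values and the shares that passed ignore any such pairing.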

How the data were processed

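Workers' ovaries, fat body and brain and worker-laid eggs were profiled by stranded mRNA sequencing. Per the labels and the study's methods, the authors estimated counts with kallisto 0.46.1 on Bter_1.0 transcripts, summed them per gene and normalized them per tissue with DESeq2 1.34.0. The deposited tissue values are these normalized counts (a signal, with about 60% whole multiples of 1 read at a tolerance of 0.02 reads, so counting noise is only approximately known). The deposited egg values are estimated counts corrected for length, used in ppm of the library's sum.

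Ovary values were tested as log2(value + 1) with limma 3.58.1 in R 4.3.3 (phenotype only, variance trend), for genes with a mean of at least 10, with Benjamini-Hochberg adjustment and a threshold of 0.05. Fold changes understate low genes. Dominance measures were compared by exact 2-sided permutation of libraries. Ovary effects were set against fat body and brain by an interaction term. The test was checked on simulated data. Alternatives were other pseudocounts, filters, scalings, thresholds, limma settings, left-out libraries, a fit over all 18 tissue libraries, and DESeq2 1.42.0 and edgeR 4.0.16 on reads recovered and rounded.

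Gene names came from tables accompanying the paper and its text. They cover 2206 of the 10087 ovary genes and follow identifier order, so lists are partial. Members and lists were chosen with earlier results of these data known, 6 lists were added and 17 names trimmed after values were seen. Named genes were, per direction, the 10 called with the largest change among those whose phenotypes do not overlap and the 5 with the smallest adjusted p, the 10 with the largest share in each phenotype, up to 3 abundant called members per list and direction, the yolk, eggshell, germ line and hormone lists with LOC100642443, and the 5 most abundant genes not called. A further 29 were chosen after their values were seen. The ranking by change depends on the pseudocount for genes near 0. Sequences and coding lengths were not used here.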

Additional observations from a re-analysis of the deposited data

Results flagged for a closer look

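Of the 15 germ line, yolk and hormone genes named by rule, 13 could be tested in both ovary and fat body, and 8 had a change in ovary that differed from that in fat body (limma interaction, adjusted p under 0.05 over all genes), against 38.7% of all 8705 genes. The log2 fold change in ovary minus that in fat body was 5.34 for HR3 (LOC100643231), 4.30 for the ecdysteroid-regulated 16 kDa protein (LOC100643802), 3.67 for ovo (LOC100643010), 1.82 for maelstrom 2 (LOC100644702) and 0.85 for bicaudal C (LOC100642983). It was -1.78 for broad-complex (LOC100643256), -1.02 for Ago3 (LOC100644656) and -0.52 for germ cell-less (LOC100644304). The adjusted p was 0.0266 for bicaudal C, 0.0156 for germ cell-less and below 0.005 for the rest. Tissue tables were normalized separately, and libraries of both tissues were taken as independent, though they may come from the same workers.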

How the results depend on the processing

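Of 3065 values for 163 named genes under the alternatives, 2905 kept their direction and side of the threshold, 152 kept only the direction, 8 newly passed and 0 reversed. Scaled to the same total, 1572 genes were higher and 3794 lower in ovary-active ovaries, and ovary-active worker DEGs made up 29.3% of calls, against 50.6% as deposited. At an adjusted p under 0.01 the counts were 1626 and 1658, and at changes of at least 1 in either direction (log2) they were 1307 and 1442. Leaving out 1 library gave 1952 to 2590 higher and 1876 to 2601 lower. DESeq2 called 2795 and 2715, and edgeR 2495 and 2574.

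Without the 2 genes with the largest mean in ovary-active ovaries, ovary-active minus ovary-inactive was 1.0 percentage points for the 10 leading genes, -195 for genes holding 50% of counts and -569 for the effective number of genes. Without the 10 such genes, an alternative chosen after seeing the data, these were -0.441 (reversed, exact permutation p = 0.2), -151 and -355, and the Gini difference was 0.0326. Leaving out 1 library gave 4.47 to 6.85, -352 to -251, -1437 to -1003 and 0.0452 to 0.0633.

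Calls higher minus lower in ovary-active ovaries turned round in 9 of 494 list values. Scaled to the total, they were -1 for DNA replication, -4 for mitosis, -4 for neuron and -1 for gut. For neuron they were also -1 with a mean of at least 100, -2 and -1 without ovary-active replicate 3 and ovary-inactive replicate 1, -1 without ovary-active replicate 3 and ovary-inactive replicate 2 together (chosen after seeing the data) and -2 with all 18 libraries in 1 fit. The cause was not tested.

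With the replicate number as a block, 2086 and 2096 genes were called, and 16 of the named genes lost their call. The study paired its pools by age, but no source used here links pools to replicate numbers, so the numbers were not taken as pairs. Deviations of libraries of the same number correlated at -0.0592, 0.1625 and -0.1761. With so few libraries per phenotype these values cannot decide whether the numbers are pairs. A comparison of counts per coding length was not run.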
